A study of Mus musculus with 24 samples.

Results

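The dendritic cell genes Zbtb46, Flt3, Xcr1, Clec9a, Batf3, Esam, Irf4, Cd209a, and Siglech were read on mouse expression arrays of CD11b+ cells. The 9 genes were chosen by name from a list of dendritic cell genes, and they are 9 of the 32451 genes or transcripts on the array. They are covered by 13 probes, with 2 probes each for Zbtb46, Flt3, Cd209a, and Siglech and 1 probe for each of the other 5 genes. The cells came from the spleen or the bone marrow of male WT, HDC-KO (lacking histidine decarboxylase, the enzyme that makes histamine), and STAT6-KO mice on the Balb/C background, 10 weeks old according to the methods of the study. They were collected from control mice and at 1, 2, and 4 weeks after myocardial infarction (MI). Every array stood for a different condition and pooled the cells of 5 mice, so the spread between mice cannot be seen. Of the 24 arrays, 22 could be used, 11 for each tissue. The other 2, the spleen control of HDC-KO mice and the 1-week bone marrow of STAT6-KO mice, carried few of their spots and were left out.

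Dendritic cells take up antigen and present it to T cells. Conventional dendritic cells fall into cDC1, which cross-present antigen to CD8+ T cells, and cDC2, which mainly prime CD4+ T cells, while plasmacytoid dendritic cells (pDC) are known for making type I interferon. Dendritic cells arise from progenitors in the bone marrow under the growth factor FLT3L and settle in lymphoid organs such as the spleen. CD11b is carried by cDC2 as well as by monocytes, macrophages, and neutrophils, whereas cDC1 and pDC of the spleen carry little of it. In RNA from a mixed preparation, fewer cells of a type and less RNA per cell cannot be told apart.

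A level is given here as the log2 spot signal minus the 75th percentile of its array, so that 0 is a bright spot and each unit is a doubling. Levels of different probes cannot be set against each other. For a gene with 2 probes, the probe with the higher mean over all arrays was used for the gene, and the other probe is given beside it. The 75th percentile ranged from 927.9 to 2461 signal units in spleen and from 963.4 to 1780 in bone marrow, and spots well above background made up 70.4 to 79.8% of an array. The number of arrays limits the precision. Slides were told apart by the scan date of the arrays. Each of the 6 slides held 1 genotype and 1 tissue, with the time points in the same order of position. Every tissue difference therefore lies between slides, and genotype within a tissue cannot be told apart from slide, nor time from position on the slide. Hdc, the gene deleted in HDC-KO mice, lay between 1.67 and 1.93 in HDC-KO spleen against 4.32 to 4.83 in WT spleen, and was lower in HDC-KO bone marrow too. In bone marrow all STAT6-KO arrays lay below all WT arrays for Stat6, but in spleen 1 of the 4 STAT6-KO arrays lay within the WT range. With the probe used this was the array of 2 weeks after MI (2.44). With both other probes of Stat6 it was the array of 4 weeks after MI (0.73 and 0.20). Itgam, which encodes CD11b, was measured on every array, at 3.52 to 4.83 in spleen and 5.10 to 5.85 in bone marrow.

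The promoters of Xcr1, Clec9a, Batf3, Cd209a, and Zbtb46 are shown because the results below turn on these genes. Each run holds 250 bases before and 50 bases after the annotated start on the strand of the gene, taken from RefSeq (GRCm38.p6), and capitals mark a match to a motif searched on both strands. The motifs were GAGGAAGT (PU.1), GAAANNGAA (ISRE), GGAANNGAA (ETS-IRF composite), and TGANTCA (AP-1, which reads the same on both strands). The first is chr9:123861980-123862279 (minus strand), the second chr6:129408612-129408911 (plus), the third chr1:191098164-191098463 (plus), the fourth chr8:3748935-3749234 (minus), and the fifth chr2:181424339-181424638 (minus).
Xcr1: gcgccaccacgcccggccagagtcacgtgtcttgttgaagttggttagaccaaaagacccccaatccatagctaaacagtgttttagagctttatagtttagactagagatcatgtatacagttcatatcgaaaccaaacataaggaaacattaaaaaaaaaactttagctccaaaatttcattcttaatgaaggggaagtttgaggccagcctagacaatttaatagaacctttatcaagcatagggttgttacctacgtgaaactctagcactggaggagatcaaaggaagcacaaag
Clec9a: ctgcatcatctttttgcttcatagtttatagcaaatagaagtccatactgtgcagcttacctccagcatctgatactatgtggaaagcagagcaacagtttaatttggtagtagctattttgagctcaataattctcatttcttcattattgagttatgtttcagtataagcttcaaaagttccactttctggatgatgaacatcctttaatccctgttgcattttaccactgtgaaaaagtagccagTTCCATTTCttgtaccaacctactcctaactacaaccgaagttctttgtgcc
Batf3: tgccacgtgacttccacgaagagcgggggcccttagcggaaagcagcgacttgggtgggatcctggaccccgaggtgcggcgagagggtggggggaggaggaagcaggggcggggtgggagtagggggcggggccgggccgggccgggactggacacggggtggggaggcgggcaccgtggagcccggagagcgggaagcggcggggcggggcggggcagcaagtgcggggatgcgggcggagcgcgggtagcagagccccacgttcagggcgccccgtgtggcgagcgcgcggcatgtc
Cd209a: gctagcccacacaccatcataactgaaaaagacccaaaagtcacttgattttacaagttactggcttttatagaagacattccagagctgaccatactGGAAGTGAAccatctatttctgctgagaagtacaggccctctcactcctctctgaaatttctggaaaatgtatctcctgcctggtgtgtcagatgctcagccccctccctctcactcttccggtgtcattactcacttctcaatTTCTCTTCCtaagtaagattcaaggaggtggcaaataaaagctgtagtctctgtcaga
Zbtb46: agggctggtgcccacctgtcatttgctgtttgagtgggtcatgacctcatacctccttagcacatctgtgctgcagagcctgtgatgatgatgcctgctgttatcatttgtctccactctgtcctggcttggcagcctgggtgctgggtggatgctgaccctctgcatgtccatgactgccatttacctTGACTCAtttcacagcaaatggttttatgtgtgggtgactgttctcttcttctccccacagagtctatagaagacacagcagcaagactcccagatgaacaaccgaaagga

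Of the 8 members with a promoter in the RefSeq table, 0 held GAGGAAGT, which stands in 3.11% of 32544 promoters of the same length. The ISRE motif stood in 1 of 8, Clec9a, at position -2 counted from the start site as 0, against 8.53% of all promoters. The ETS-IRF composite motif stood in 1 of 8, Cd209a, which had it at positions -152 and -8, against 8.22% of all. The AP-1 motif stood in 1 of 8, Zbtb46, at position -61, against 7.79% of all. A match describes the letters only.

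The first comparison was between the tissues of the same genotype and time, in 10 pairs of arrays. The arrays of a pair lay on different slides, and all pairs of a genotype came from the same slides. Pairs of a genotype therefore share any difference between those slides. Of the 9 genes, 7 were higher in spleen than in bone marrow and 0 were lower. The 7 were Xcr1, Cd209a, Batf3, Flt3, Clec9a, Esam, and Irf4 (limma with the pair as a block, Benjamini-Hochberg adjusted p under 0.05 over 27659 genes tested). In the same fit 22.4% of all genes were called higher in spleen and 32.1% lower, which makes 54.5% called in either direction. The median difference was 1.09 over the 9 genes and -0.17 over all genes tested (log2, spleen minus bone marrow). All 9 passed the filter on low signals. Xcr1 passed it only through the spleen arrays, so it had to differ. The other 8 were well above background on all 22 arrays with the probe used, and 6 of these 8 were called higher in spleen. The spleen arrays all lay above the bone marrow arrays for 4 of the 9 genes, Xcr1, Cd209a, Batf3, and Flt3 (3 of the 8 without Xcr1), as for 5.92% of all genes tested, and 7.33% of all genes had every spleen array below every bone marrow array.

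**Figure D1:**
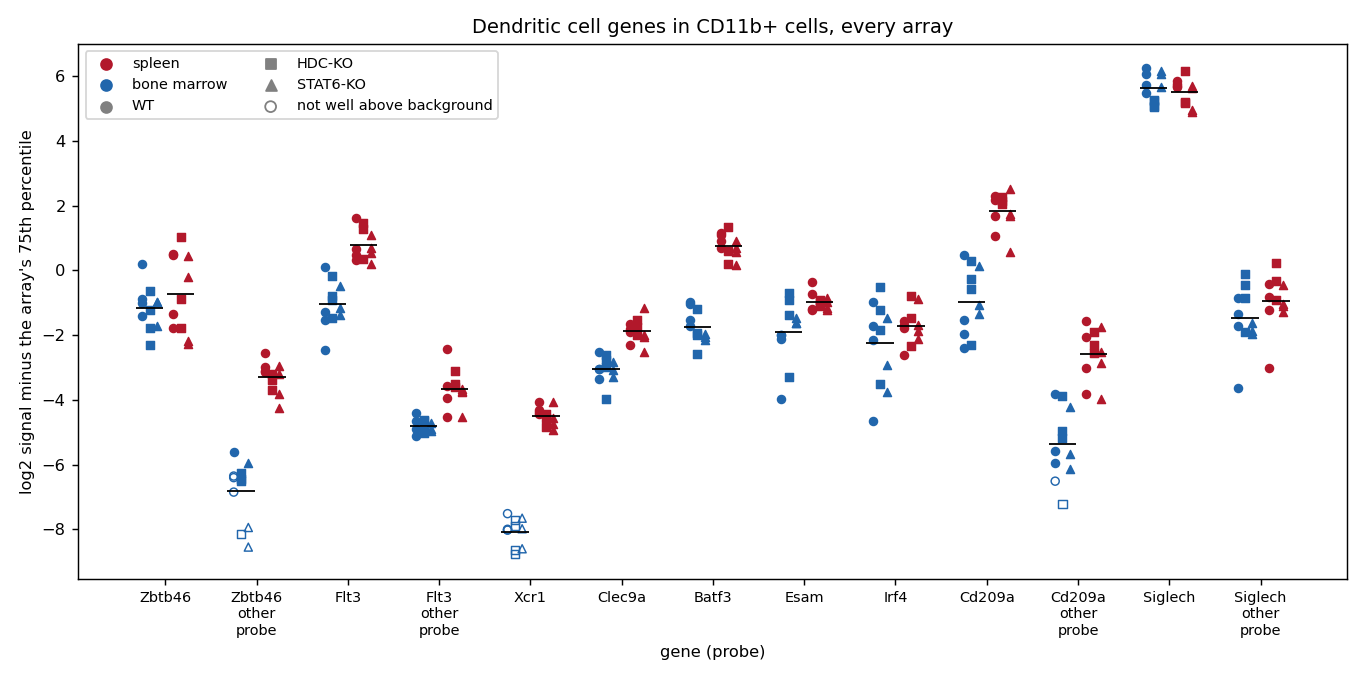
Level of each dendritic cell gene on every complete array (log2 signal minus the 75th percentile of the array, y axis), with bone marrow in blue to the left and spleen in red to the right for each probe (x axis). Circles are WT, squares HDC-KO, and triangles STAT6-KO, open symbols were not well above background, and black lines are means over 11 arrays. Xcr1 lay between -4.94 and -4.07 in spleen and was open on all 11 bone marrow arrays, while the tissues overlapped for the Siglech probe used.

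Among the genes of cDC1, Xcr1 encodes the receptor for the chemokine XCL1, by which cDC1 find CD8+ T cells. Its level in spleen was -4.94 at the lowest, -4.44 at the median, and -4.07 at the highest, and in bone marrow -8.77, -8.00, and -7.51. All 11 spleen arrays were above all bone marrow arrays, and 0 of 11 bone marrow arrays were well above background. Xcr1 was therefore at least 4.15-fold higher in spleen, taking for each bone marrow array its dimmest spot still well above background in place of the dimmer Xcr1 spot (measured means -4.49 and -8.07, limma adjusted p = 2.06e-08). Since its passing of the filter fixed that it differed, this p adds no support.

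Batf3, a transcription factor that cDC1 need to develop, was 0.15, 0.70, and 1.33 in spleen (lowest, median, highest) and -2.58, -1.95, and -0.99 in bone marrow. The groups did not overlap. The difference was 2.45 ± 0.20 (SE, 10 pairs), or 5.46-fold, with a limma adjusted p of 1.6e-06. Clec9a, a receptor by which cDC1 sense the filaments of dead cells, was -2.51, -1.91, and -1.17 in spleen and -3.96, -3.04, and -2.51 in bone marrow. The tissues met at their edges, with the lowest spleen array at the level of the highest bone marrow array, but spleen was higher in 10 of 10 pairs. The difference was 1.09 ± 0.17 or 2.13-fold (limma adjusted p = 0.000166).

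Among the genes of cDC2, Cd209a, a C-type lectin related to human DC-SIGN that is also found on monocyte-derived cells, was 0.56, 2.06, and 2.50 in spleen and -2.39, -1.08, and 0.48 in bone marrow. Its groups did not overlap with this probe, while they overlapped with the other probe. The difference was 2.85 ± 0.29, or 7.22-fold, with a limma adjusted p of 8.19e-06. The other probe gave 2.82 ± 0.30, and the probes followed each other over the 11 spleen arrays (r = 0.95) and the 11 bone marrow arrays (r = 0.93).

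Esam, an adhesion molecule that marks a Notch2-dependent group of cDC2 in spleen and is also made by endothelial cells, was -1.22, -0.98, and -0.37 in spleen and -3.98, -1.62, and -0.69 in bone marrow. The groups overlapped, and 9 of 10 pairs were higher in spleen. The difference was 1.05 ± 0.27, or 2.07-fold, with a limma adjusted p of 0.00577. Its pairs ranged from -0.01 to 2.77, and both pairs of MI 1 week lay above 2. Within the pairs of a single genotype its mean difference was 1.64 in WT, 0.86 in HDC-KO, and 0.45 in STAT6-KO, and the limma adjusted p was over the threshold in HDC-KO (0.23) and STAT6-KO (0.165) alone.

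Irf4, a transcription factor of cDC2 that B cells and plasma cells also use, was -2.60, -1.70, and -0.78 in spleen and -4.67, -1.83, and -0.52 in bone marrow. The bone marrow arrays spread over a wider range that took in all spleen arrays, and 7 of 10 pairs were higher in spleen. The difference was 0.66 ± 0.26, or 1.58-fold, just under the threshold (limma adjusted p = 0.049, exact two-sided sign-flip p over pairs = 0.0469). The call was lost on leaving out any of 7 of the 10 pairs in turn (adjusted p between 0.0626 and 0.11), and without both pairs of MI 1 week the difference was 0.42 (adjusted p = 0.213), while with slide as a random block it was 0.308.

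Flt3, the receptor for FLT3L on dendritic cells and their progenitors, was 0.20, 0.66, and 1.61 in spleen and -2.45, -1.16, and 0.11 in bone marrow. The groups did not overlap. The difference was 1.90 ± 0.20, or 3.73-fold, with a limma adjusted p of 1.05e-05. The other probe gave a smaller difference of 1.16 ± 0.17 (limma adjusted p = 9.44e-05), with r = 0.80 between the probes in spleen.

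Zbtb46, a transcription factor of conventional dendritic cells, depended on the probe. With the probe used it was -2.28, -0.89, and 1.04 in spleen and -2.31, -0.998, and 0.20 in bone marrow, and the tissues overlapped. The difference was 0.57 ± 0.34 with a 95% interval of -0.17 to 1.32 (limma adjusted p = 0.179), and 6 of 10 pairs were higher in spleen. With the other probe the level was -4.26, -3.20, and -2.54 in spleen and -8.55, -6.43, and -5.60 in bone marrow, where 5 of 11 arrays were well above background. The groups did not overlap with that probe, and the difference of 3.54 ± 0.21 had a limma adjusted p of 1.76e-07 in the fit over all probes. The probes did not follow each other, with r = 0.14 over the 11 spleen arrays and r = -0.12 over the 11 bone marrow arrays.

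Siglech, a lectin that marks pDC and some macrophages, also had probes that disagreed. With the probe used it was 4.88, 5.67, and 6.17 in spleen and 5.06, 5.66, and 6.24 in bone marrow, with the tissues at one level. The difference was -0.11 ± 0.18 with a 95% interval of -0.51 to 0.28 (limma adjusted p = 0.623). With the other probe it was -3.00, -0.92, and 0.22 in spleen and -3.62, -1.62, and -0.10 in bone marrow. The groups overlapped, yet spleen was higher in 10 of 10 pairs, by 0.62 ± 0.10 (limma adjusted p = 0.000234 over all probes). Between the probes r was -0.15 over the spleen arrays and -0.66 over the bone marrow arrays. Which probe follows the transcript of Zbtb46 or Siglech was not tested.

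**Figure D2:**
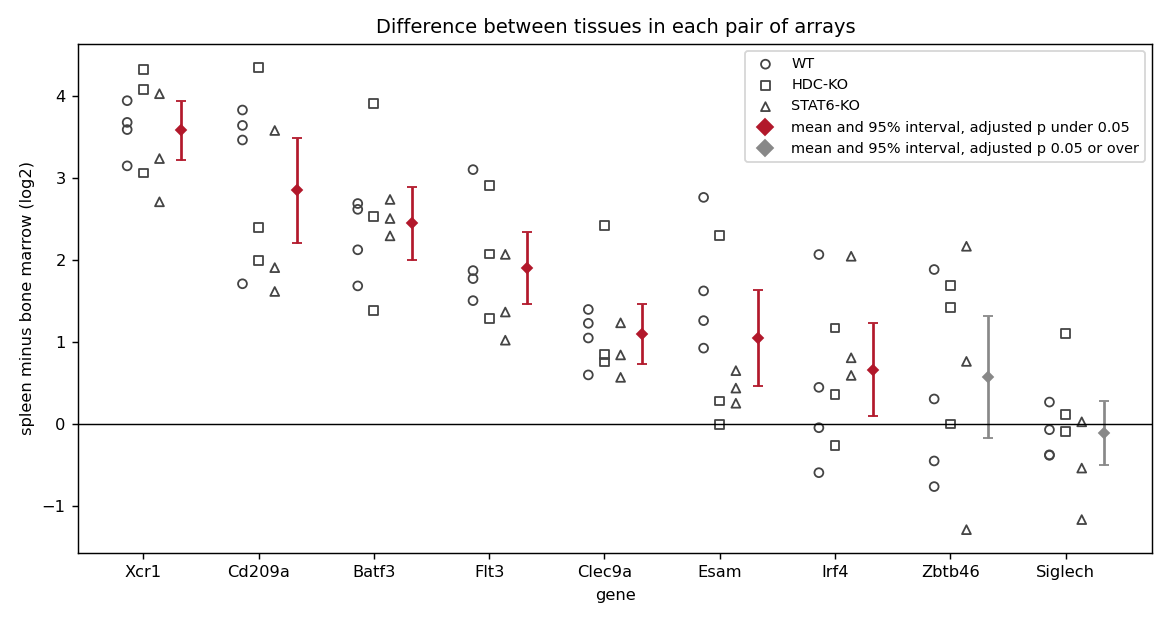
Difference between spleen and bone marrow (log2, y axis) in each of the 10 pairs of arrays for the dendritic cell genes (x axis, probe used), with circles for WT, squares for HDC-KO, and triangles for STAT6-KO. Diamonds with bars are the mean and 95% interval of the limma fit, red where the adjusted p was under 0.05. Xcr1, which was not well above background in bone marrow, and Cd209a, Batf3, Flt3, and Clec9a were above 0 in all 10 pairs, and Zbtb46 and Siglech lay on both sides of 0.

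The tissues differed in other cell types as well, and the part of these in the results was not tested. The summed level of 10 B cell markers (signal in units of the 75th percentile) was 24.5 to 93.8 in spleen and 4.83 to 34.5 in bone marrow, and that of 9 T cell markers was 13.4 to 68.5 and 13.2 to 24.8. All of these markers were well above background on every array. Of the 10 B cell markers 8 were higher in spleen and 1 was lower, and of the 9 T cell markers 8 were higher and 1 was lower (limma). The lower T cell marker was Cd3d (-1.50), named here after its value was seen. It was the brightest T cell marker in bone marrow, at 3.38 to 4.37, so it weighs most in the sum there. The 7 NK cell markers summed to 4.08 to 31.3 in spleen and 1.29 to 3.48 in bone marrow, the 7 markers of monocytes and macrophages to 76.1 to 137.9 and 39.4 to 62.5, and the 8 markers of red pulp macrophages to 68.9 to 182.5 and 44.3 to 60.8. The 8 neutrophil granule genes went the other way, at 123.7 to 290.9 in spleen and 328.1 to 567.6 in bone marrow. The 7 MHC class II genes summed to 124.3 to 222.8 in spleen and 44.4 to 106.5 in bone marrow. The 6 plasma cell markers summed to 30.3 to 90.7 in spleen and 16.9 to 40.0 in bone marrow. The 8 endothelial markers summed to 3.58 to 11.2 in spleen and 3.24 to 4.51 in bone marrow, although 6 of them were lower and 1 was higher in spleen (limma).

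Further genes of the same cells were examined by list, in the fit where 22.4% of all genes were called higher in spleen and 32.1% lower. Of 10 further cDC1 genes tested, 8 were higher in spleen and 1 was lower, with a median difference of 0.77 against -0.17 over all genes. Tlr3, which senses double-stranded RNA in cDC1, was well above background on 11 of 11 spleen arrays and 1 of 11 bone marrow arrays, so it passed the filter only through spleen and had to differ. Its measured level was -4.94 to -3.92 in spleen and -8.98 to -5.79 in bone marrow, and 7 of the other 9 genes of this list were higher in spleen. Cd8a, carried by cDC1 of the spleen and by CD8+ T cells, differed by 3.08 ± 0.26, and Cadm1, an adhesion molecule of cDC1, by 2.79 ± 0.19. Cd24a was the 1 that was lower in spleen, by -1.29, and it was chosen for naming after its value was seen.

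Of 12 further cDC2 genes, 6 were higher in spleen and 1 was lower (median 0.58). Dtx1, a Notch target that marginal zone B cells also express, had the largest difference of these, 5.54 ± 0.34. Its level was 0.77 to 2.43 in spleen and -6.35 to -1.995 in bone marrow, so the tissues were far apart. Clec4a4, the lectin DCIR2 found on splenic cDC2, differed by 3.40 ± 0.17, with levels of 0.53 to 1.64 in spleen and -3.29 to -1.30 in bone marrow. Cd7, which T and NK cells also carry, differed by 3.38 ± 0.14.

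Of 14 further pDC genes, 7 were higher in spleen and 4 were lower (median 0.38), against 22.4% and 32.1% of all genes. Ly6d differed by 1.45 ± 0.26, Upb1 by 1.43 ± 0.17, and Bst2, which tethers budding viruses and is also induced by interferon, by 1.40 ± 0.15. Of 12 genes shared by conventional dendritic cells or serving their growth, 6 were higher and 4 lower (median 0.66). The 6 include Csf2, a growth factor named here after its value was seen, which was well above background on 4 of 11 spleen and 0 of 11 bone marrow arrays and so passed the filter only through spleen. Cd86, a costimulatory ligand for T cells, differed by 2.65 ± 0.18, Dpp4 by 2.36 ± 0.25, and Itgax, which encodes CD11c, by 2.25 ± 0.17. Of 8 mature dendritic cell genes tested, 7 were higher in spleen and 0 were lower (median 1.82). Ccr7, the receptor that leads mature dendritic cells and lymphocytes to T cell zones, differed by 3.71 ± 0.17, Cd83 by 3.51 ± 0.15, and Cd40 by 2.85 ± 0.20, and B cells also express all 3.

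**Figure D3:**
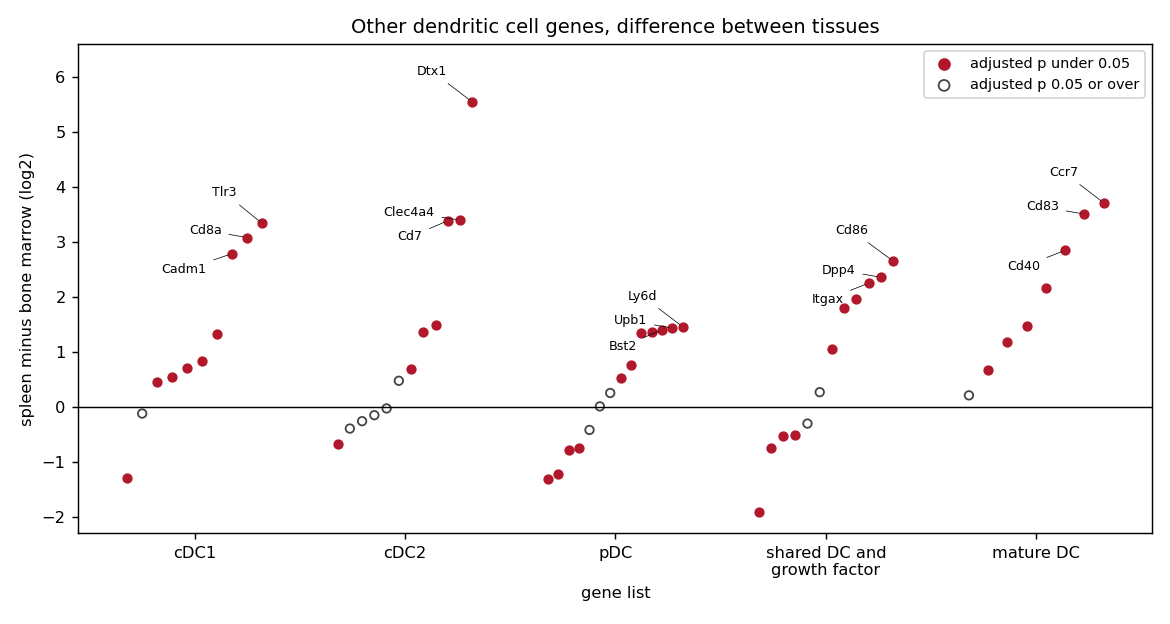
Difference between spleen and bone marrow (log2, y axis) for the tested genes of 5 further lists of dendritic cell genes (x axis), each point 1 gene over 10 pairs, filled where the limma adjusted p was under 0.05. The 3 genes of each list with the largest difference are named, and Dtx1 stands highest at 5.54.

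The second question was whether the genes changed with time after MI. In spleen, Zbtb46 was the 1 of 9 genes called by the F test over 1, 2, and 4 weeks against control (limma adjusted p = 0.0035), where 19.2% of all genes were called. With the probe used its level in WT spleen was 0.47 in control, -1.76 at 1 week, -1.34 at 2 weeks, and 0.50 at 4 weeks. In STAT6-KO spleen it was -0.22, -2.17, -2.28, and 0.44 at the same times, and in HDC-KO spleen -1.79, -0.89, and 1.04 from 1 week on. The 6 arrays of 1 and 2 weeks all lay below the 5 arrays of control and 4 weeks. The 75th percentile that is subtracted also varied with time in spleen. It was 1357 to 1734 in control, 1587 to 2461 at 1 week, 1638 to 2223 at 2 weeks, and 927.9 to 1605 at 4 weeks. The part of this in the result was not tested.

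The fitted differences of Zbtb46 from control were -2.22 ± 0.26 at 1 week, -1.82 ± 0.26 at 2 weeks, and 0.35 ± 0.26 at 4 weeks (log2, SE). The median over all genes of the difference with the largest size was -0.26, and it moved to 0.265 with median scaling, where the 1-week difference of Zbtb46 was -1.92. The other probe of Zbtb46 did not pass (largest difference 0.30, limma adjusted p = 0.829), and its spleen levels at 1 week, -3.20 to -3.12, lay within those of control, -4.26 to -2.54. The call on the probe used was lost without the WT arrays (1-week difference -2.16, limma adjusted p = 0.156) and with normexp background correction (-1.81, 0.158). In these settings limma called 0 of all genes too, with 5916 and 2265 at an unadjusted p under 0.05. With each genotype left out in turn the difference was between -2.41 and -2.09. Its pattern over the spleen arrays was shared by many genes. Of 16428 genes compared, 4.8% had a Pearson r over 0.9 with it over the 11 arrays, against 0.712% for Siglech, 0.243% for Irf4, and at most 0.0609% for each of the other 6. In the same arrays the T cell markers summed to 13.4 to 15.7 at 1 week and to 24.1 to 68.5 at the other times, and the B cell markers to 28.1 to 53.8 in control, 24.5 to 37.1 at 1 week, 76.8 to 82.6 at 2 weeks, and 39.3 to 93.8 at 4 weeks. The 7 mature neutrophil markers had mean sums of 293.1 in control, 219.4 at 1 week, 202.0 at 2 weeks, and 299.1 at 4 weeks. Their ranges overlapped, at 230.9 to 355.3 in control, 183 to 266.1 at 1 week, and 155.7 to 256.4 at 2 weeks. By the limma F test over time in spleen 0 of these 7 were called, and 0 had an unadjusted p under 0.05. The 7 markers of monocytes and macrophages had mean sums of 118.6, 101.1, 84.9, and 121.1 in the same order of times, and 0 of them were called. The 8 neutrophil granule genes had mean sums of 172.8, 215.8, 168.9, and 190.1, and 2 of them were called. The part of these in the result was not tested.

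In bone marrow, 0 of the 8 genes tested were called over time, where 0 of 27090 genes were called by limma (4 of the 8 members and 5652 of all genes had an unadjusted p under 0.05). Esam and Irf4 came nearest, each with a limma adjusted p of 0.0741. Esam was -1.996, -3.98, -2.12, and -1.99 in WT bone marrow at control, 1, 2, and 4 weeks, and -0.69, -3.28, -1.39, and -0.92 in HDC-KO. In STAT6-KO it was -1.61 in control, -1.47 at 2 weeks, and -1.62 at 4 weeks. Both 1-week arrays lay below the other 9, and the fitted difference at 1 week was -2.21 ± 0.22.

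Irf4 was -1.73, -4.67, -2.14, and -0.98 in WT bone marrow at those times, -1.24, -3.51, -1.83, and -0.52 in HDC-KO, and -3.74, -2.93, and -1.48 in STAT6-KO at control, 2, and 4 weeks. The lowest was WT at 1 week, and the STAT6-KO control lay below the HDC-KO array of 1 week. The fitted difference at 1 week was -2.29 ± 0.39. The B cell markers were also lowest in these 2 arrays, at 4.83 and 8.19 against 8.73 to 34.5 in the other bone marrow arrays, and the part of that was not tested. The 1-week time point of bone marrow had 2 arrays, with 71.3% and 76.1% of the spots well above background.

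Whether the course over time differed between the tissues was tested on the 10 pair differences. Of 27659 genes 0 were called by limma (4896 had an unadjusted p under 0.05), and 0 of the 9 members were, with adjusted p of 0.291 for Zbtb46, 0.195 for Esam, and 0.233 for Irf4.

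**Figure D4:**
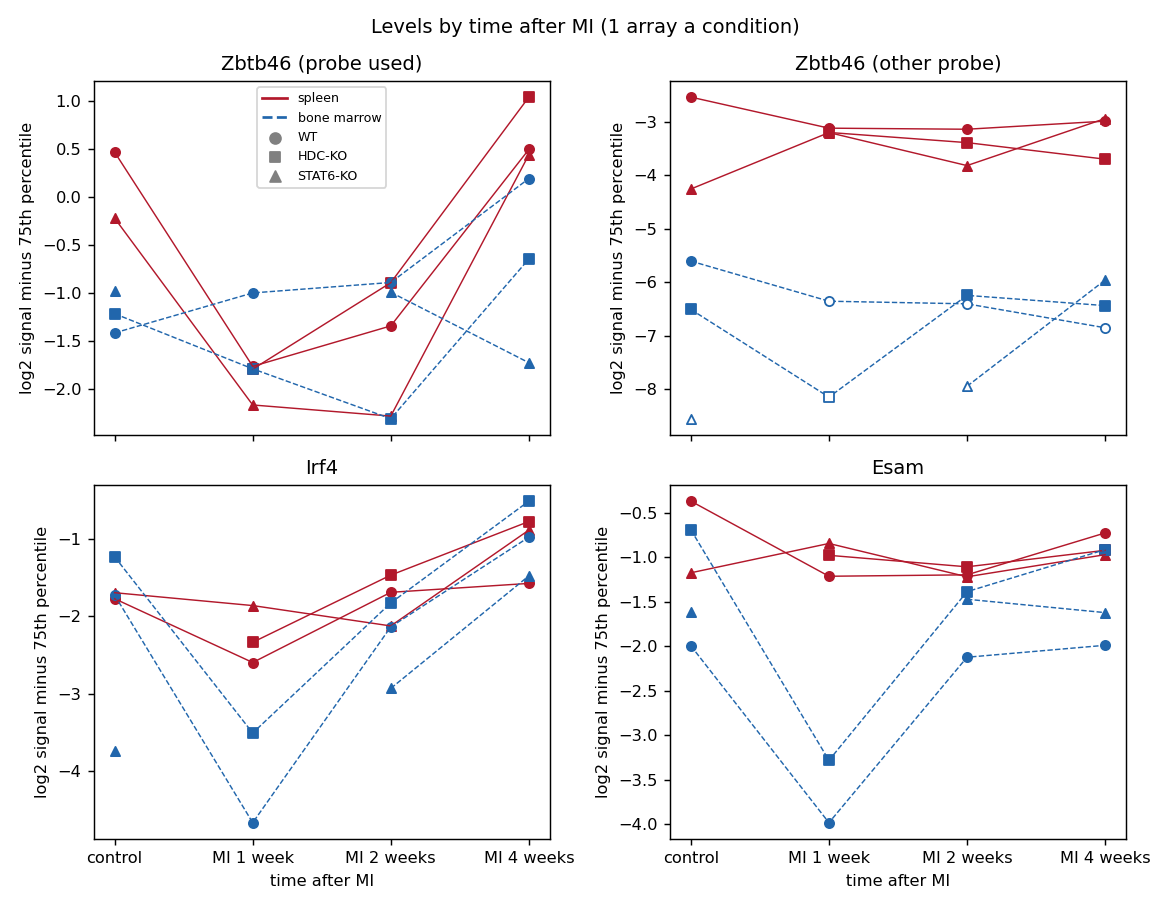
Level (log2 signal minus the 75th percentile, y axis) of both Zbtb46 probes, Irf4, and Esam by time after MI (x axis), 1 array a point, in spleen (red, solid) and bone marrow (blue, dashed), with circles for WT, squares for HDC-KO, triangles for STAT6-KO, and open symbols where the probe was not well above background. With the probe used, Zbtb46 in spleen lay between -2.28 and -0.89 at 1 and 2 weeks and between -0.22 and 1.04 in control and at 4 weeks, and the other probe did not follow this.

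The last question was whether the genes differed between genotypes. In spleen, 0 of 9 genes were called between HDC-KO and WT (limma, 0 with an unadjusted p under 0.05), against 2.8% of all genes, and 0 of 9 between STAT6-KO and WT (2 with an unadjusted p under 0.05), against 1.95%. In bone marrow, 0 of 8 were called between HDC-KO and WT (3 with an unadjusted p under 0.05), against 0.443% of all genes, and 0 of 8 between STAT6-KO and WT (2 with an unadjusted p under 0.05), against 4.61%. Over all genes in spleen, 5987 of 26476 had an unadjusted p under 0.05 for HDC-KO and 6069 for STAT6-KO. Over all genes in bone marrow, 5751 of 27090 did for HDC-KO and 6077 for STAT6-KO. With 1 time point left out in turn, limma called 0 of the members in each of these comparisons. Xcr1 was left out in bone marrow, since no array there was well above background.

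The smallest adjusted p was that of Esam in bone marrow. HDC-KO was higher than WT at 4 of 4 time points there, by 1.30 in control, 0.70 at 1 week, 0.74 at 2 weeks, and 1.07 at 4 weeks. The fitted difference was 0.95 ± 0.16, with a 95% interval of 0.57 to 1.33 (limma adjusted p = 0.0743), and it passed the threshold with median scaling (0.0467), with quantile normalization (0.043), and with the strictest filter on dim probes (0.0472). In spleen the same difference was -0.06, with a 95% interval of -0.54 to 0.42. Batf3 in bone marrow was lower than WT at 4 of 4 time points in HDC-KO and at 3 of 3 in STAT6-KO, with fitted differences of -0.62 ± 0.20 and -0.88 ± 0.23 (limma adjusted p = 0.175 and 0.08). These fits share the WT arrays. Irf4 in bone marrow was higher in HDC-KO at 4 of 4 time points, by 0.61 ± 0.30, and lower in STAT6-KO at 3 of 3, by -1.01 ± 0.33 (limma adjusted p = 0.278 and 0.133).

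In spleen the 95% intervals were widest for Cd209a, from -0.69 to 1.18 in HDC-KO and -1.02 to 0.66 in STAT6-KO. Zbtb46 in STAT6-KO spleen was lower than WT at 4 of 4 time points with the probe used, by -0.52 ± 0.19 (limma adjusted p = 0.163), and Siglech by -0.45 ± 0.17 (0.179). With the other probe of each gene, Zbtb46 differed by a mean of -0.61 and was higher at 1 of 4 time points. Siglech then differed the opposite way, by a mean of 0.40, and was higher at 2 of 4. The other Siglech probe was higher in HDC-KO than in WT at 3 of 3 time points in spleen, by 1.13 ± 0.54, and at 4 of 4 in bone marrow, by 1.06 ± 0.22, and neither passed (limma adjusted p = 0.264 and 0.109). With the probe used, Siglech in HDC-KO bone marrow was lower at 4 of 4, by -0.73 ± 0.20, so its probes went opposite ways there.

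**Figure D5:**
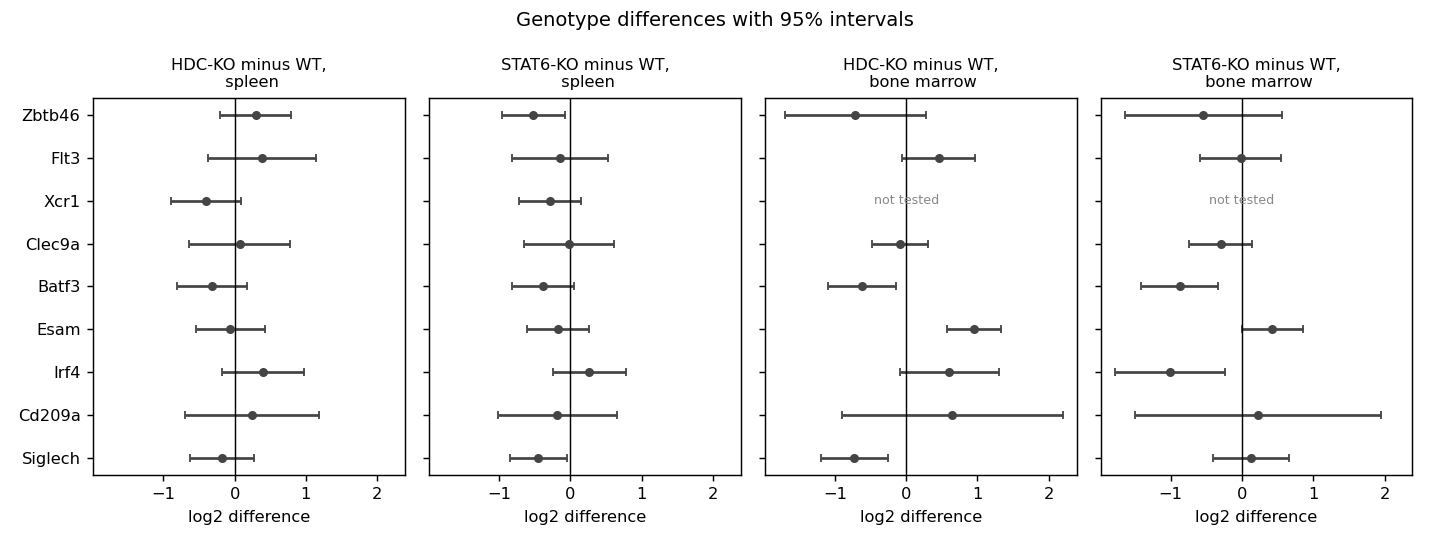
Fitted difference of HDC-KO or STAT6-KO from WT (log2, x axis) for each dendritic cell gene (y axis, probe used) in spleen and bone marrow, with 95% intervals of the limma fit. None of the differences passed an adjusted p of 0.05, and the interval of Esam in HDC-KO bone marrow, 0.57 to 1.33, lay farthest from 0.

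A difference in the genotype effect between the tissues was tested on the pair differences. Of the 9 genes 0 were called for STAT6-KO (2 with an unadjusted p under 0.05) and for HDC-KO (1). Limma called 1.2% and 1.78% of all genes there. Over all genes, 5259 of 27659 had an unadjusted p under 0.05 for STAT6-KO and 5847 for HDC-KO. Esam had the smallest adjusted p in both, with -0.76 ± 0.26 for STAT6-KO (limma adjusted p = 0.189) and -0.87 ± 0.26 for HDC-KO (0.131).

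Genes among the most like each member were named by their Pearson r over the 11 complete spleen arrays, among 16437 genes. They were Trim37 (0.89), Sdk1 (0.86), and Abhd16a (0.86) for Xcr1, Prrg1 (0.83) and Fbxl17 (0.83) for Clec9a, and Cyp4f16 (0.94), Cyp4f13 (0.94), and Polr3c (0.94) for Batf3. For Cd209a they were Anks3 (0.89), Adam23 (0.88), and Lgi4 (0.87), for Flt3 Stard3nl (0.91), Ank (0.90), and Pid1 (0.90), and for Esam Ehf (0.91) and Slc44a5 (0.90). For Irf4 they were F2rl3 (0.95), 4930429B21Rik (0.94), and Pramel24 (0.94). The probes used for Zbtb46 and Siglech had the closest partners, Hcn2, Dpm2, and Lama3 at 0.99 each and Med16 (1.00), Dnajc5 (1.00), and Ogfod1 (0.99). All points share the array and its scaling, and genes with noisy spots can share a pattern over 11 arrays.

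The members were also set against each other by Pearson r within a tissue, and the same shares over all pairs of genes were not computed. Of the 36 pairs of members, 7 had an r over 0.5 in spleen and 7 in bone marrow, with a median of 0.25 and 0.26. Below -0.5 there were 2 pairs in spleen and 0 in bone marrow. In spleen the highest was Zbtb46 with Siglech (0.83) and the lowest Batf3 with Irf4 (-0.72). The other probes of Zbtb46 and Siglech did not follow the probes used in spleen (r = 0.14 and -0.15). Xcr1 and Clec9a, both of cDC1, had an r of 0.55 in spleen. In bone marrow Esam was in 4 of the 7 pairs, with Irf4 (0.74), Flt3 (0.70), Cd209a (0.63), and Clec9a (0.61). Each of these genes had its lowest mean by time in the 2 bone marrow arrays of MI 1 week. Those means were -3.63 for Esam, -4.09 for Irf4, -1.95 for Flt3, -2.14 for Cd209a, and -3.65 for Clec9a. The part of these 2 arrays in the r was not tested.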

How the data were processed

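RNA of CD11b+ cells was labelled with Cy3 by the authors and hybridised to Agilent 4x44K arrays, which were read with Agilent Feature Extraction 11.0.1.1. The deposited spot intensity is on a linear scale after background subtraction, without scaling between arrays. The submitters name GCRMA and the methods Genespring for later steps, whose output was not used here. Of 43020 spots per array, 3055 over 22 arrays were left out as outliers. Probes were named by RefSeq accession (GRCm38.p6).

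The log2 signal minus the 75th percentile of the array was fitted with limma 3.58.1 (R 4.3.3), for genes well above background on at least 2 arrays of a fit, with Benjamini-Hochberg adjustment over all genes and a threshold of 0.05. Tissues were compared in 10 pairs with the pair as a block. Genotype and time were additive terms in the 11 arrays of a tissue. With no repeat of any condition, the variation of an effect over the other factor served as the error. The fits were tested on simulated data. The members were named whatever their values, with the 3 genes of each further list with the largest tissue difference and the 3 genes most like each member in spleen, of which 2 are not reported here. The members and lists were chosen with earlier results of these data known. Plots were drawn with matplotlib (Python). Alternatives were normexp (offset 50, on the median spot signal), quantile normalization, 2 other scalings, a floor, 2 other filters, other uses of probes, other blocks, the methods' t-test, and leaving out pairs, time points, or genotypes. The time course between tissues and the fit without the pairs of MI 1 week were added after seeing the data.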

Additional observations from a re-analysis of the deposited data

Results flagged for a closer look

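Of 27 sets of 4 or 10 differences examined, 2 had a value far from the others by Dixon's test, which flags about 1 in 20 by chance. The spleen minus bone marrow difference of Clec9a was 2.42 in the HDC-KO pair of MI 1 week, while the next highest of the 10 pairs was 1.40. The STAT6-KO minus WT difference of Batf3 in spleen was -0.94 in control, and the nearest of the 4 time points was -0.25.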

How the results depend on the processing

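The number of the 9 genes called was within 1.5 times its reported value in 144 of the 155 recomputed counts. Only the comparison between the tissues and that over time in spleen had genes called. In the others the reported number was 0, and counts that stayed at 0 are among the 144. Between the tissues the number called was 4 in the HDC-KO pairs alone and 6 to 7 with 1 pair left out, against 7 in all pairs. Over time in spleen it was 2 with median scaling, with a floor on low signals, and with the strictest filter (probes above background on all arrays of the fit), 0 with normexp and without the WT arrays, and 0 to 1 with 1 genotype left out, against 1. Over time in bone marrow it was 2 with the strictest filter, against 0. Between HDC-KO and WT in bone marrow it was 1 (Esam) with median scaling, with quantile normalization, and with the strictest filter, and between STAT6-KO and WT in bone marrow it was 1 (Batf3, -0.98, limma adjusted p = 0.0483) with median scaling, against 0. The Siglech difference between the tissues turned to 0.62 with its other probe (limma adjusted p = 0.000234). The Irf4 difference lost its call in 17 alternatives, with an adjusted p up to 0.438, and was 0.42 (0.213) without the pairs of MI 1 week. Clec9a missed the threshold in the HDC-KO pairs alone (1.34, adjusted p = 0.0502). Zbtb46 was called between the tissues with the mean over its probes (2.05, adjusted p = 1.02e-06). The causes were not tested.

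No fit with a replicate number as a block could be made, since each condition had 1 array; the pairs of the tissue comparison are arrays of the same genotype and time. Over all genes, the count called ranged from 7505 to 18400 between the tissues (15064 as reported), from 4 to 964 for STAT6-KO (517) and 0 to 2597 for HDC-KO (742) in spleen, from 0 to 1489 for STAT6-KO (1248) and 3 to 393 for HDC-KO (120) in bone marrow, from 0 to 6083 over time in spleen (5083), and from 0 to 186 over time in bone marrow (0). The tissue difference of the genotype effect ranged from 0 to 1444 for STAT6-KO (331) and 0 to 656 for HDC-KO (492). The share of called genes that were higher moved by over 10 percentage points under quantile normalization in spleen for STAT6-KO (34.2 to 45.7%), HDC-KO (73.3 to 50.5%), and time (25.1 to 42.1%), in bone marrow for STAT6-KO (86.4 to 68.5%), and in the tissue difference of the genotype effect for STAT6-KO (6.65 to 19.3%) and HDC-KO (81.3 to 62.4%).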
